A study of Arabidopsis thaliana with 12 samples.

Results

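The unfolded protein response sensors and transcription factors of Arabidopsis thaliana were followed as a set of 10 genes among the 33602 loci measured. They were chosen by function and locus, not by their values, though earlier results of these data were known. They were IRE1A (AT2G17520), IRE1B (AT5G24360), BZIP60 (AT1G42990), BZIP28 (AT3G10800), BZIP17 (AT2G40950), S1P (AT5G19660), S2P (AT4G20310), NAC103 (AT5G64060), NAC062 (AT3G49530) and NAC089 (AT5G22290). Polyadenylated RNA was sequenced from rosettes of plants grown in soil for 3 weeks, in 12 libraries of 4 genotypes with 3 biological replicates each. The genotypes were the wild type Col-0, the single mutants ceh1 and eds16, and the double mutant ceh1/eds16, so ceh1 was compared with Col-0 and ceh1/eds16 with eds16. The ceh1 mutation lies in HDS, whose plastid enzyme converts methyl-erythritol cyclodiphosphate, and the series asks which transcriptome changes under accumulation of this metabolite depend on salicylic acid. The eds16 mutation disrupts ICS1, the gene of the isochorismate synthase that makes most stress-induced salicylic acid. The labels name no treatment beside the mutations.

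The unfolded protein response is the program by which a cell raises the folding capacity of the endoplasmic reticulum (ER) when unfolded proteins build up there. In plants it has an RNA branch, in which the ER membrane proteins IRE1A and IRE1B cut the bZIP60 messenger so that a transcription factor without a membrane anchor is made, and a protein branch, in which bZIP28 and bZIP17 travel from the ER to the Golgi and are released by the proteases S1P and S2P. The factors then act in the nucleus on genes of chaperones, disulfide formation and degradation. NAC103, NAC062 and NAC089 are NAC transcription factors linked to ER stress in Arabidopsis. NAC103 is described as a target and relay of bZIP60, and NAC062 and NAC089 are made as membrane-tethered proteins that move to the nucleus. Transcript levels show how much messenger of a regulator is present, not whether the protein was cut or moved.

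The piece of the BZIP60 messenger that IRE1 cuts is shown because it defines the RNA branch. It was read from the TAIR10.1 genome at chr1:16136255-16136323 on the minus strand, inside the coding sequence, and the letters CTGCTG shared by both stem-loops are in capitals.
BZIP60 IRE1 site: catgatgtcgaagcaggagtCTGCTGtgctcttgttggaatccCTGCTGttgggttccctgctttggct
These letters occurred 2 times in the coding sequence of 888 bases, starting at positions 647 and 670, a spacing of 23 bases, which is not a multiple of 3. RefSeq's annotation records that IRE1A and IRE1B splice this messenger. The deposited table holds 1 value for the whole gene, so cut and uncut BZIP60 messenger could not be told apart, and every BZIP60 level below is their sum.

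Between 4.99 M and 18.08 M reads per library fell in genes. ICS1 checked the eds16 labels: its normalized counts lay between 224 and 277 in Col-0 and 631 and 690 in ceh1, against 10.4 to 19.2 in eds16 and 14.2 to 28.3 in ceh1/eds16. HDS was lower in ceh1, at 1362 to 1840 against 3582 to 3874 in Col-0, although a mutation within the gene need not change its messenger. Replicate 3 of ceh1/eds16 differed most from the rest of its group, and its squared differences from replicates 1 and 2 were 26.4 and 25.6 times those of read sampling, against 2.64 to 8.97 for all other pairs within a genotype. Results that rest on this library are therefore also given without it. Among tissue markers, all 5 of rosette leaf were lower in ceh1 than in Col-0, with summed levels of 142900 to 171000 against 320300 to 365600, and all 5 were lower in ceh1/eds16 (125900 to 200800) than in eds16 (277100 to 295200). All 5 vascular markers, at 628.7 to 864.3 in ceh1 against 1516 to 1836 in Col-0, and all 5 flower markers, at 19.9 to 67.2 against 124 to 164, were lower too. Those lists stood at 628.7 to 750.9 and 50.7 to 75.6 in ceh1/eds16, against 1243 to 1551 and 228 to 271 in eds16. Of 4 root markers PYK10 was higher in ceh1 (733 to 952 against 116 to 191) and in ceh1/eds16 (712 to 884 against 187 to 221), SCR was not called, and IRT1 and NRT2.1 fell under the filter on low values, IRT1 with at most 1.33. The root list summed to 905 to 1143 in ceh1, 335 to 424 in Col-0, 879 to 1069 in ceh1/eds16 and 360 to 396 in eds16. The 4 seed markers were at or near 0, with sums of at most 3.24. Guard cell markers summed to 448 to 458 in ceh1, 592 to 749 in Col-0, 512.5 to 573 in ceh1/eds16 and 638 to 708 in eds16. Of these 4 markers KAT1 was lower in ceh1 (mean 84.9 normalized counts, 298 in Col-0) and in ceh1/eds16 (mean 68.8, 250.1 in eds16). FAMA was higher in ceh1/eds16 than in eds16 (log2 0.52, adjusted p = 0.00478, limma), and MYB60 and SPCH were called in neither comparison. Trichome markers summed to 101 to 143 in all 4 genotypes, and of 3 tested 1 was higher and 1 lower in ceh1, and 1 lower in ceh1/eds16 against eds16. The part of these tissue differences in the results was not tested, and in bulk RNA fewer cells of a type and less RNA per cell cannot be told apart.

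Messengers of the transcription factors rose in ceh1, and those of the proteases, IRE1A and IRE1B did not pass the test against Col-0. Values are the normalized counts that the authors deposited, and differences were tested with limma on log2(normalized count + 1), where the added 1 makes folds of genes with few reads too small. A gene was called at an adjusted p under 0.05 over all 18289 genes tested, and all 10 regulators passed the filter on low values. In ceh1 against Col-0, 6 of the 10 were called higher (BZIP60, BZIP28, BZIP17, NAC103, NAC062 and NAC089), where 25.2% of all genes tested were called higher, 25% lower and 50.2% either way. None of the 10 was called lower by limma, and 0 were lower at an unadjusted p under 0.05, by edgeR or by DESeq2. In ceh1/eds16 against eds16, the same 6 and IRE1A were called higher, 7 in all, where 22.1% of all genes tested were called higher and 20.2% lower. Again 0 were called lower by limma, edgeR or DESeq2, or at an unadjusted p under 0.05. The median log2 difference of the 10 was 0.54 in the first comparison and 0.74 in the second, beside 0.0080 and 0.0052 over all genes tested. The 2 comparisons share no library in their group means, but all 12 libraries enter the estimate of the spread used in both.

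**Figure D1:**
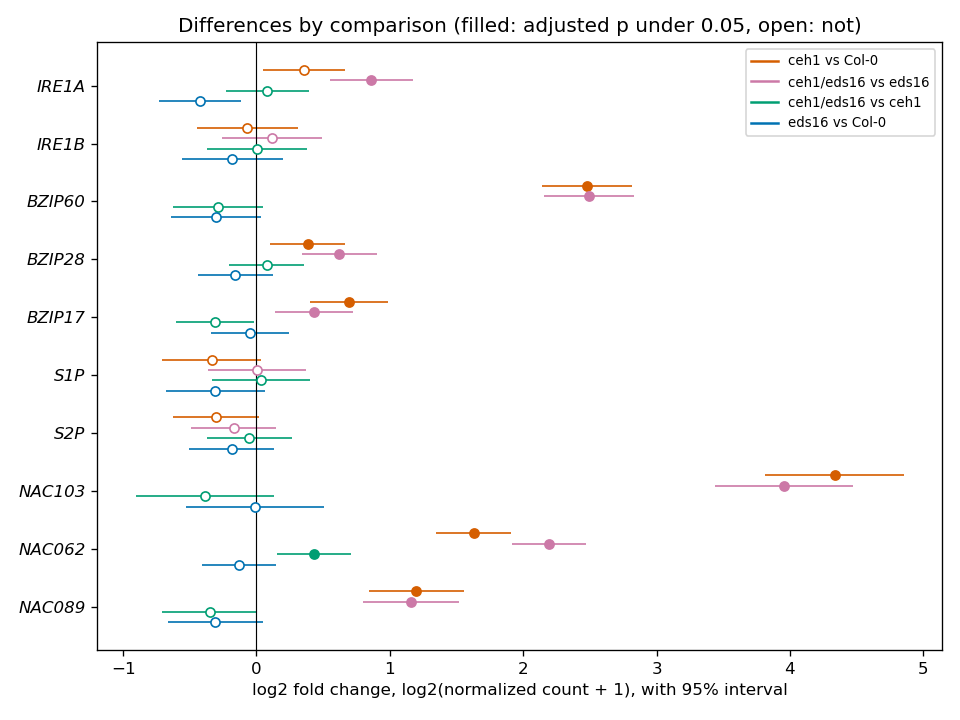
Log2 fold change of each regulator in 4 comparisons, with 95% intervals from limma on log2(normalized count + 1), filled where the adjusted p over all genes tested was under 0.05 and open elsewhere. NAC103 (4.33 and 3.96) and BZIP60 (2.48 and 2.49) lie farthest to the right in both comparisons of a ceh1 genotype with its control, while IRE1B, S1P and S2P lie around 0.

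IRE1A and IRE1B are the paired sensor kinases and ribonucleases of the RNA branch, and IRE1A but not IRE1B was called in a comparison of a ceh1 genotype with its control. IRE1A read 379, 371 and 337 in Col-0, 454.5, 446.5 and 491 in the ceh1 plants, 259, 297 and 256 in the eds16 plants, and 557, 569 and 374 in ceh1/eds16. Every ceh1 and ceh1/eds16 library except replicate 3 of the double mutant lay above every Col-0 library, and every eds16 library lay below all others. IRE1A rose 1.82-fold in ceh1/eds16 against eds16 (log2 0.86 ± 0.15 SE, adjusted p = 0.000137, limma), and this call held under all 25 alternative settings. In ceh1 against Col-0 its difference of 1.28-fold missed the threshold (log2 0.36 ± 0.15 SE, adjusted p = 0.053, limma; range over the alternatives 0.00641 to 0.152). Without ceh1/eds16 replicate 3, which enters the shared estimate of the spread, the same difference was called (adjusted p = 0.00717), as it was without ceh1/eds16 replicate 2 (adjusted p = 0.0439). It was also called under quantile normalization (adjusted p = 0.0344), with only the groups compared in the fit (0.0111) and with library totals made equal (log2 0.59, adjusted p = 0.00641). Under the other 20 of the 25 alternatives it was not called. The calls over all genes, 4617 higher and 4566 lower, rose to 5188 and 5138 without ceh1/eds16 replicate 3. They were 5162 and 4986 with only the groups compared, and 6882 and 2674 with equal totals.

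IRE1B read 223.5, 223 and 229 in Col-0, 200.4, 204 and 242 in the ceh1 plants, 200.5, 168 and 233 in the eds16 plants, and 255, 252.5 and 155 in ceh1/eds16. The 4 genotypes overlapped throughout. Its difference was -0.07 ± 0.18 (SE, log2) in ceh1 against Col-0, with a 95% interval from -0.44 to 0.31, and 0.12 ± 0.18 in ceh1/eds16 against eds16, with an interval from -0.26 to 0.49. Per kilobase of transcript, which allows 2 genes to be compared, the level of IRE1A divided by that of IRE1B was 1.66 ± 0.125 (SD, n = 3) in Col-0 and 2.23 ± 0.125 in ceh1, and with the eds16 mutation 1.43 ± 0.357 alone and 2.35 ± 0.12 in ceh1/eds16. The ratio was 2.09 to 2.34 in the ceh1 libraries against 1.52 to 1.75 in Col-0, and 2.25 to 2.48 in ceh1/eds16 against 1.13 to 1.82 in eds16, so neither pair of groups overlapped. It was not tested.

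BZIP60 (chr1:16135723-16137463, minus strand, TAIR10.1, 2 exons, protein-coding), the factor whose messenger IRE1 cuts at the site printed above, read 227, 282 and 295 in Col-0 and 1562, 1477 and 1431 in ceh1. In eds16 it read 219.7, 225 and 203, and in ceh1/eds16 966, 1136 and 1651. Every ceh1 and ceh1/eds16 library was above every Col-0 and eds16 library. BZIP60 rose 5.58-fold in ceh1 (log2 2.48 ± 0.16 SE, adjusted p = 4.3e-09, limma) and 5.63-fold in ceh1/eds16 against eds16 (log2 2.49 ± 0.16 SE, adjusted p = 1.87e-09, limma). Both calls held under all 25 alternatives. The rises differed by 0.01 on the log2 scale, with a 95% interval of the difference from -0.47 to 0.495.

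**Figure D2:**
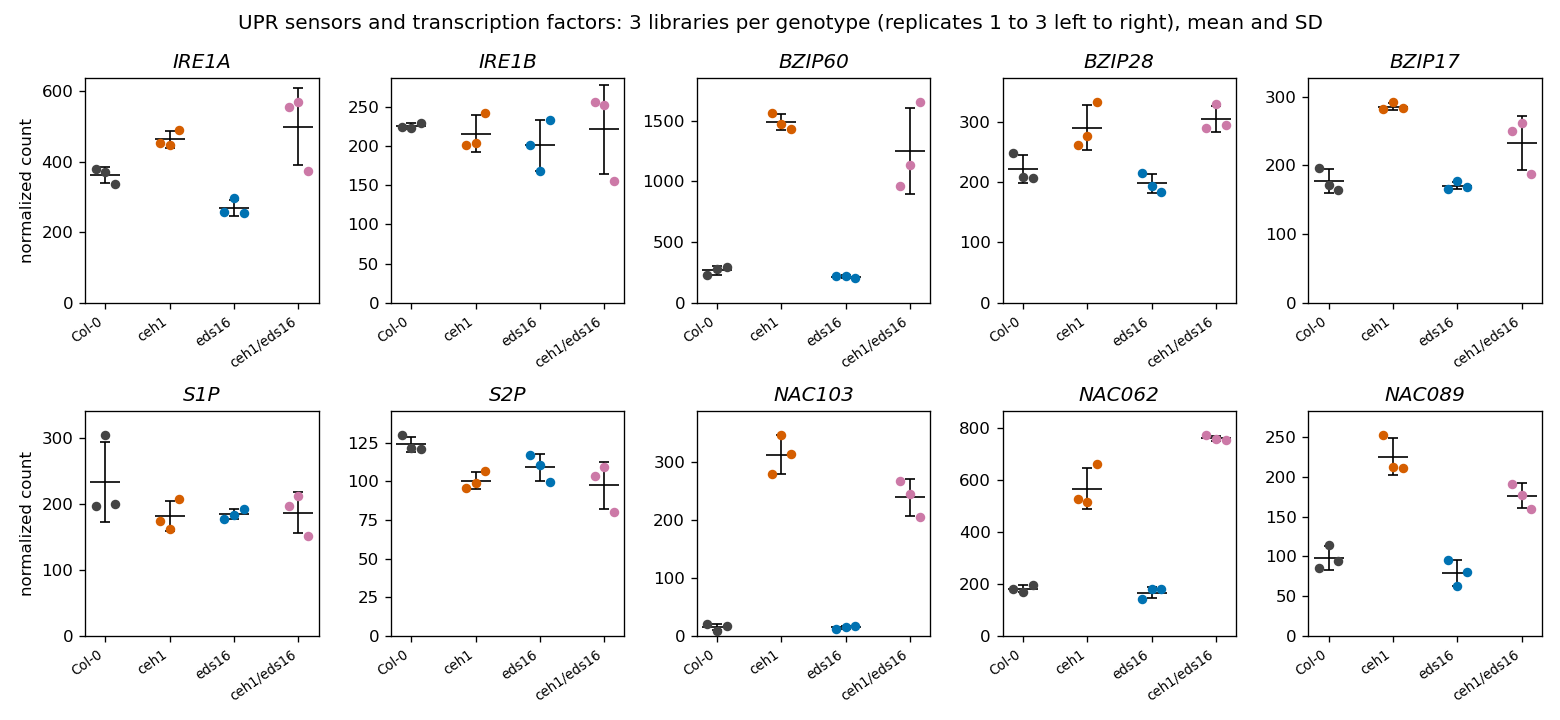
Normalized count of each regulator in every library (points, replicates 1 to 3 from left to right), with the mean and SD of the 3 libraries of a genotype. BZIP60, NAC103, NAC062 and NAC089 form a high pair of genotypes (ceh1 and ceh1/eds16) and a low pair (Col-0 and eds16), while IRE1B and S1P show overlapping points. Replicate 3 of ceh1/eds16 is the lowest point of its group in 8 panels and the highest for BZIP60.

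bZIP28 and bZIP17 are the membrane-held factors of the protein branch, and both messengers rose by less than that of BZIP60. BZIP28 read 248.5, 209 and 207 in Col-0, 261, 277 and 332 in the ceh1 plants, 215, 194 and 184 in the eds16 plants, and 289.9, 330.1 and 294 in ceh1/eds16. Its rise was 1.54-fold in ceh1/eds16 against eds16 (log2 0.62 ± 0.13 SE, adjusted p = 0.0011, limma). In ceh1 against Col-0 it was 1.31-fold (log2 0.38 ± 0.13 SE, adjusted p = 0.0239, limma), a call that was lost without Col-0 replicate 2 (adjusted p = 0.0774), Col-0 replicate 3 (0.0806) or ceh1 replicate 3 (0.119). With library totals made equal, which moved the median of all genes tested by 0.23, its log2 difference in that comparison was 0.62.

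BZIP17 read 196, 171 and 163.5 in Col-0, 281, 291.5 and 284 in the ceh1 plants, 166, 177 and 169 in the eds16 plants, and 249.9, 261 and 187 in ceh1/eds16. All ceh1 libraries stood above all others, and ceh1/eds16 replicate 3 lay within the Col-0 range. BZIP17 rose 1.61-fold in ceh1 (log2 0.69 ± 0.14 SE, adjusted p = 0.000597, limma). In ceh1/eds16 it was 1.35-fold above eds16 (log2 0.43 ± 0.14 SE, adjusted p = 0.0186, limma), and this call was lost without eds16 replicate 1 (adjusted p = 0.0597), ceh1/eds16 replicate 1 (0.071) or ceh1/eds16 replicate 2 (0.0843), and under 3 other settings, with a range of 0.00101 to 0.0843 over all alternatives.

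S1P and S2P, the Golgi proteases that release bZIP28 and bZIP17, did not pass the test in any comparison. S1P, a subtilase, read 196, 303 and 199.6 in Col-0, 174.5, 162 and 207 in the ceh1 plants, 177.5, 184 and 192 in the eds16 plants, and 196.5, 211.5 and 151 in ceh1/eds16. Col-0 replicate 2, the shallowest library, held the highest S1P value, and the other 11 lay between 151 and 211.5. Its log2 difference was -0.34 ± 0.17 (SE) in ceh1 against Col-0 (adjusted p = 0.12, limma; 95% interval -0.71 to 0.03) and 0.0034 ± 0.17 in ceh1/eds16 against eds16. S2P, a metalloprotease of the membrane, read 129.6, 121 and 121 in Col-0, 95.7, 98.7 and 107 in the ceh1 plants, 117, 110.4 and 99.4 in the eds16 plants, and 103, 109 and 80.0 in ceh1/eds16. Every ceh1 library was below every Col-0 library, but the difference of -0.30 ± 0.15 (SE, log2) was not called (adjusted p = 0.106, limma). It was called lower under quantile normalization only, among the 25 alternatives (log2 -0.43, adjusted p = 0.0248).

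NAC103 (chr5:25633455-25635789, minus strand, TAIR10.1, 5 exons, protein-coding) had the steepest rise of the 10 on the log2 scale. It read 20.2, 8.92 and 16.7 in Col-0, 279, 346.5 and 314 in the ceh1 plants, 11.5, 14.6 and 17.6 in the eds16 plants, and 268, 246 and 205 in ceh1/eds16. The rise was 20.2-fold in ceh1 (log2 4.33 ± 0.25 SE, adjusted p = 9.58e-10, limma) and 15.5-fold in ceh1/eds16 against eds16 (log2 3.96 ± 0.25 SE, adjusted p = 1.11e-09, limma). All 3 ceh1 libraries were above all 3 of the double mutant, but the difference between these genotypes was not called (log2 -0.39 ± 0.25 SE, adjusted p = 0.378, limma). In ceh1 against Col-0 its log2 change ranked above 99.7% of all genes tested.

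NAC062, a factor tethered to the plasma membrane and linked to survival of ER stress and to defence in Arabidopsis, read 182, 168 and 194 in Col-0, 525, 514 and 659 in the ceh1 plants, 141, 178 and 179 in the eds16 plants, and 770.1, 756 and 751 in ceh1/eds16. It was the only one of the 10 whose double-mutant libraries all lay above the ceh1 libraries. For 3 of the 10 (BZIP17, NAC103 and NAC089) they all lay below, though none of these was called lower. The share of all genes tested that separate between these genotypes was not counted, so this is a description only. NAC062 (chr3:18362443-18364959, minus strand, TAIR10.1, 6 exons, protein-coding) rose 3.1-fold in ceh1 (log2 1.63 ± 0.13 SE, adjusted p = 5.15e-08, limma) and 4.57-fold in ceh1/eds16 against eds16 (log2 2.19 ± 0.13 SE, adjusted p = 8.38e-10, limma). Between the double mutant and ceh1 it was 1.35-fold higher (log2 0.43 ± 0.13 SE, adjusted p = 0.048, limma), where 5.93% of all genes tested were called higher and 4.24% lower. This last call was lost under 15 of the 25 alternatives, with adjusted p between 0.0149 and 0.201. They included leaving out ceh1 replicate 1 (0.201), ceh1 replicate 2 (0.199), ceh1/eds16 replicate 1 (0.114) or ceh1/eds16 replicate 2 (0.101), any 1 of the 3 Col-0 libraries (0.0555 to 0.0584) or eds16 replicates 2 and 3 (0.0519 and 0.0528), and the fit with the replicate number as a block (0.0626).

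NAC089, which is tethered to the ER membrane and linked to programmed cell death under ER stress, read 85.6, 114 and 94.0 in Col-0, 252, 213 and 211 in the ceh1 plants, 94.99, 62.5 and 80.8 in the eds16 plants, and 191, 178 and 160.1 in ceh1/eds16. Both groups with the ceh1 mutation lay above both groups without it. It rose 2.3-fold in ceh1 (log2 1.2 ± 0.17 SE, adjusted p = 2.14e-05, limma) and 2.23-fold in ceh1/eds16 against eds16 (log2 1.16 ± 0.17 SE, adjusted p = 2.85e-05, limma). The calls of NAC103, NAC062 and NAC089 in these 2 comparisons held under all 25 alternatives.

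Whether the effect of ceh1 depended on the eds16 mutation was tested as an interaction, the log2 change in ceh1/eds16 against eds16 minus that in ceh1 against Col-0. No regulator was called by limma, edgeR or DESeq2, where 4.87% of all genes tested were called by limma, 3.08% higher and 1.79% lower. As single libraries were left out, the calls over all genes, 564 higher and 327 lower, ranged from 241 to 1684 and from 104 to 1328. At an unadjusted p under 0.05 there were 2, NAC062 and IRE1A. NAC062 differed by 0.56 ± 0.19 (SE, log2; 95% interval 0.17 to 0.96; adjusted p = 0.0936, limma) and IRE1A by 0.50 ± 0.21 (0.07 to 0.94; adjusted p = 0.166, limma). Without ceh1/eds16 replicate 3 both were called, NAC062 at 0.57 (adjusted p = 0.0453) and IRE1A at 0.70 (adjusted p = 0.00649), but the calls over all genes rose with them, to 1684 higher and 1328 lower. NAC062 was also called without ceh1 replicate 3 (log2 0.68, adjusted p = 0.0468). For NAC103 the interval of the interaction ran from -1.11 to 0.36, and for BZIP60 it was given above, both including 0.

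In eds16 against Col-0, 0 of the 10 were called by limma, edgeR or DESeq2, where 4.6% of all genes tested were called, 1.63% higher and 2.96% lower. All 10 log2 differences were below 0, from -0.42 (IRE1A) to -0.01 (NAC103), with a median of -0.18 beside -0.02 over all genes tested. IRE1A alone had an unadjusted p under 0.05 (log2 -0.42 ± 0.15 SE, adjusted p = 0.117, limma), and it was called lower without ceh1/eds16 replicate 3 (adjusted p = 0.0147), where the calls over all genes rose from 542 to 1029 lower and from 299 to 751 higher. The eds16 libraries of IRE1A, BZIP60, S1P and S2P all lay below those of Col-0, though none of these was called. How many of all genes tested separate in this way was not counted, so this is a description only. In ceh1/eds16 against ceh1, where 10.2% of all genes tested were called either way, the only call was NAC062. No regulator was called lower by limma, edgeR or DESeq2, although BZIP17 had one under 0.05 before adjustment (log2 -0.31 ± 0.14 SE, adjusted p = 0.189). BZIP60 differed by -0.29 ± 0.16 (SE, log2, adjusted p = 0.305, limma). Without ceh1/eds16 replicate 3 it was called lower, at -0.51 (adjusted p = 0.00886), where the calls over all genes rose from 776 to 1541 lower and from 1084 to 1707 higher.

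Replicate 3 of ceh1/eds16, whose removal changed the calls above, deviated on most of the 10 genes. Relative to the mean of replicates 1 and 2 it was higher by 0.66 for BZIP60 and lower by 0.71 for IRE1B, 0.59 for IRE1A, 0.44 for BZIP17, 0.43 for S1P, 0.40 for S2P, 0.32 for NAC103, 0.20 for NAC089, 0.07 for BZIP28 and 0.02 for NAC062, all on the log2 scale. Over 18276 genes with a transcript length, the deviation of this library fell with length (Spearman rho -0.629, a description across genes that share the library). Its median deviation was 0.35 for transcripts under 1500 bases, -0.07 from 1500 to 2500 bases and -0.39 from 2500 bases. BZIP60, at 1231 bases, was the shortest of the 10 transcripts, and S1P (3470 bases), IRE1B (3086) and IRE1A (2994) were the longest. In the middle length class, S2P (2149 bases), NAC103 (1747) and NAC089 (1540) lay lower than the class median of -0.07. BZIP28 (2377 bases) and NAC062 (1963) lay near that median. The part of transcript length in the deviations of the 10 was not tested. The other libraries had rho between -0.473 and 0.63, the last in ceh1/eds16 replicate 2. That value was taken against the mean of replicates 1 and 3, so replicate 3 enters it. Outside ceh1/eds16 the highest rho was 0.549, in ceh1 replicate 3. Without replicate 3 the log2 difference from eds16 was 2.28 for BZIP60, 1.06 for IRE1A, 0.58 for BZIP17 and 4.07 for NAC103.

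**Figure D3:**
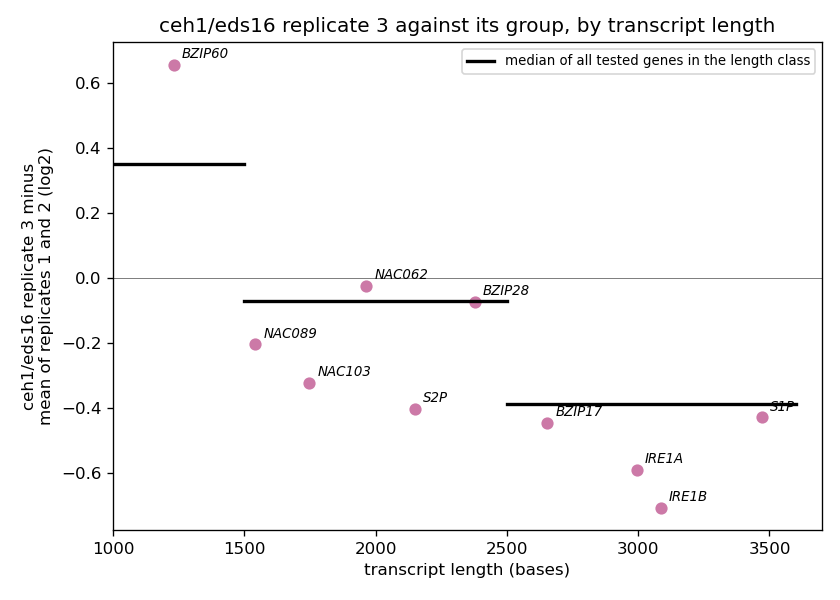
Deviation of ceh1/eds16 replicate 3 from the mean of replicates 1 and 2 (log2) against transcript length in bases for the 10 regulators (points), with the median of all tested genes in 3 length classes (black lines, 0.35, -0.07 and -0.39). BZIP60 lies at the short end with the one positive deviation, and IRE1A and IRE1B lie at the long end below -0.5. S2P and NAC103 lie well below the line of their class.

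Within genotypes, the deviations of IRE1A and BZIP60 from their group means had r = -0.795 over the 12 libraries, and r = -0.272 over the 9 libraries left without ceh1/eds16. For BZIP60 and BZIP17 r was -0.885 over 12 libraries and -0.799 over 9, and for IRE1A and BZIP17 0.908 and 0.593. These are descriptions of points that share library and transcript length, given without a test.

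Per kilobase of transcript, BZIP60 was the most abundant of the 10 messengers in every genotype, at 218 ± 29.2 normalized counts per kilobase in Col-0 and 1210 ± 53.8 in ceh1, then 175 ± 9.26 in eds16 plants and 1016 ± 290 in ceh1/eds16 (SD, n = 3). It held 25.2 ± 2.99% of the summed level of the 10 in Col-0 and 50.9 ± 2.53% in ceh1, then 24.1 ± 1.16% in eds16 plants and 45.5 ± 9.25% in ceh1/eds16. In Col-0 IRE1A followed, at 121 ± 7.42 normalized counts per kilobase, then BZIP28 at 93.2 ± 9.83 and NAC062 at 92.4 ± 6.81, which did not differ beyond their spread. The next 5, IRE1B (73.0 ± 1.11), S1P (67.2 ± 17.6), BZIP17 (66.7 ± 6.42), NAC089 (63.6 ± 9.54) and S2P (57.7 ± 2.26), lay close together, and neighbours in this order differed by less than the larger of their SDs. NAC103 stood last, at 8.75 ± 3.31. In ceh1 the order after BZIP60 was NAC062 (288 ± 41), NAC103 (179 ± 19.3), IRE1A (155 ± 8.01), NAC089 (146 ± 15.2) and BZIP28 (122 ± 15.7), with S2P last at 46.7 ± 2.64. NAC062 held 17.6 ± 1.61% of the summed level in ceh1/eds16 against 12.1 ± 1.55% in ceh1, and the libraries did not overlap (16% to 19.2% against 11.2% to 13.9%).

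**Figure D4:**
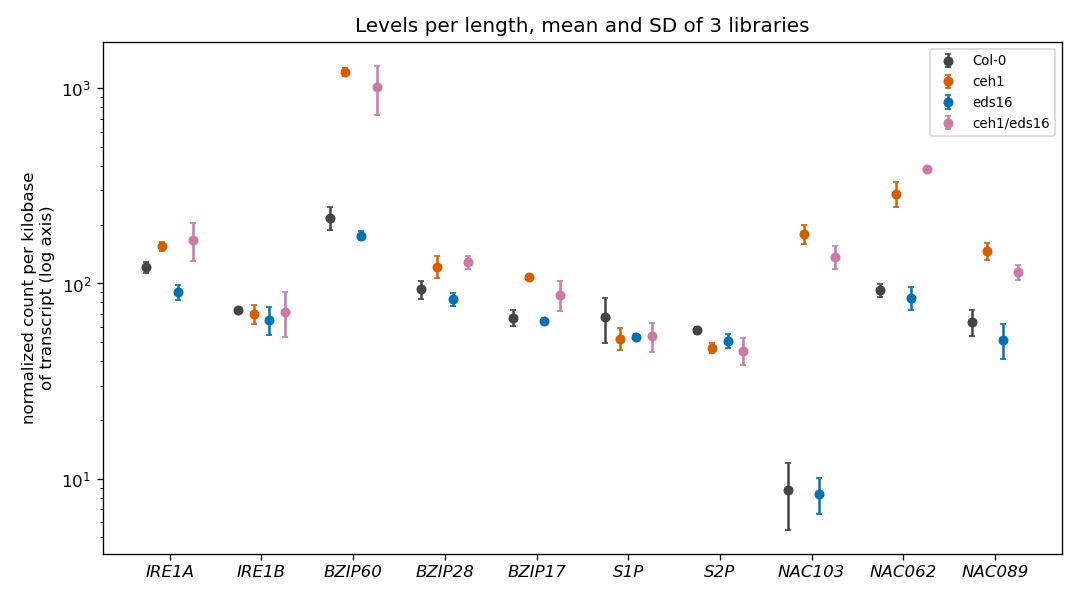
Level of each regulator per kilobase of its transcript (log axis), as mean and SD of 3 libraries for each genotype. BZIP60 has the highest level in each genotype, and NAC103 moves from the lowest place in Col-0 (8.75) to the third in ceh1 (179).

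The 250 bases before the annotated start of each gene were read from the TAIR10.1 genome and searched on both strands for letters known from ER stress promoters, since several of these genes rose together. ERSE was searched as CCAAT, 10 bases of any kind, then CACG, and ERSE-II as ATTGG, 2 bases of any kind, then CACG. UPRE-III was searched as the letters TCATCG. The G-box was searched as CACGTG. Apart from it, the ACGT core of many bZIP binding sites was searched only in the form TGACGT. Of the 10 regulators, 2 held any of them: the G-box stood 153 to 148 bases before the start of BZIP60 and 191 to 186 bases before that of NAC062, beside 6.49% of 27443 promoters. ERSE was found in 0 of 10 and in 0.689% of all promoters, ERSE-II in 0 and 0.131%, UPRE-III in 0 and 6.45%, and TGACGT in 0 and 7.69%. Among 13 ER chaperone and lectin genes, ERSE was found in 5, or 38.5%. The annotated BZIP60 start lies only 4 bases before its coding sequence, so its window may hold transcribed bases. That of NAC103 lies 637 bases before the first coding base, the most of the 10, and the bases between were not searched. The S1P window overlaps AT5G19670, a gene on the opposite strand. The 2 promoters with a match and that of BIP3, the most strongly raised chaperone gene below, are printed from 5′ to 3′ on the minus strand, with matched fixed letters in capitals.
BZIP60 promoter (chr1:16137464-16137713): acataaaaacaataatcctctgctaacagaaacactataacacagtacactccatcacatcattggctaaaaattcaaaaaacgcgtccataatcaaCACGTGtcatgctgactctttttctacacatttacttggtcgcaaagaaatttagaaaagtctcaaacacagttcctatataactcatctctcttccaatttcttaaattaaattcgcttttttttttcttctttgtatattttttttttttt
NAC062 promoter (chr3:18364960-18365209): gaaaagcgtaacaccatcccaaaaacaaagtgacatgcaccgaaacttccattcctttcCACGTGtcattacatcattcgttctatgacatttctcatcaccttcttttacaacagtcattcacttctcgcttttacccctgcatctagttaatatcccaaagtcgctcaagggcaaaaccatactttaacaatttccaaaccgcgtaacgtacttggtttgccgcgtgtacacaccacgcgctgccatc
BIP3 promoter (chr1:2931851-2932100): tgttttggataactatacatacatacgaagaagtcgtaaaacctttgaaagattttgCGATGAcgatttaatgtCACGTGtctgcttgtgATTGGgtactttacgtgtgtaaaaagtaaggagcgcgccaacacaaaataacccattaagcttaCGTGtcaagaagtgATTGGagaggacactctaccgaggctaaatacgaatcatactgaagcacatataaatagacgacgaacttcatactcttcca
In BIP3, ERSE was read on the opposite strand at 174 to 156 and at 96 to 78 bases before the start, the first of them sharing letters with a G-box at 176 to 171, and UPRE-III at 193 to 188. A match describes these letters only, and no match says only that they are not in this window.

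Other genes of the pathway, and related transcription factors listed with them, rose with the regulators. These lists were chosen with earlier results of these data known, so their counts are a description. Of 48 genes in 6 lists, 42 passed the filter on low values, and 33 of these were called higher and 2 lower in ceh1 against Col-0, beside 25.2% and 25% of all genes tested, with a median log2 change of 1.38. In ceh1/eds16 against eds16, limma called 36 higher (edgeR 35, DESeq2 36), with a median of 1.16, beside 22.1% of all genes tested by limma. None of the 42 was lower by limma, edgeR or DESeq2, where limma called 20.2% of all genes tested lower. Among ER chaperones and lectins 12 of 13 were higher in each comparison. BIP3, the stress-induced form of the ER chaperone BiP, went from 53.5, 66.0 and 48.9 in Col-0 to 2070, 1928 and 2109 in ceh1, a 35.9-fold rise (adjusted p = 2.03e-12, limma). In eds16 it stood at 23.0, 14.6 and 19.7, below every Col-0 library, and in ceh1/eds16 at 1546, 1725 and 1698. ERDJ3A, a co-chaperone of BiP, rose 17.1-fold in ceh1, and BIP2, another BiP gene, 3.7-fold, from 1189 ± 175 to 4367 ± 139. BIP2 is nearly identical to BIP1, so reads of the pair may have been split between them, and ERDJ3A overlaps 60 bases of a gene on the opposite strand.

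All 7 genes of disulfide formation were higher in both comparisons. ERO1, the oxidase of that pathway, rose 9.31-fold in ceh1 and 9.01-fold in ceh1/eds16 against eds16. The protein disulfide isomerase genes PDIL2-2 and PDIL1-2 rose 7.29-fold and 5.99-fold in ceh1. For ER-associated degradation, 5 of 7 were higher and 1 lower in ceh1, and 6 of 7 higher in ceh1/eds16 against eds16. HRD1B, a ubiquitin ligase of that pathway, rose 3.56-fold, the lectin OS9 2.91-fold and DER1 2.5-fold in ceh1. All 3 genes of translocation and vesicle transport were higher in both comparisons: SEC31A, of the vesicle coat, rose 20.7-fold in ceh1, SEC61B, of the translocation channel, 9.68-fold and SAR1A, a vesicle GTPase, 8.67-fold. Among 4 tested genes of ER stress survival and death, BI-1, a suppressor of cell death, rose 5.04-fold and BAG6, a co-chaperone, was lower (fold 0.658, adjusted p = 0.0164, limma), while AGB1 was not called (fold 1.17, adjusted p = 0.0854, limma). HRD1A, the other gene of the 42 that was lower in ceh1 (fold 0.723, adjusted p = 0.00741, limma), was named after its value was seen.

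Of 8 tested NAC factors related to the 10 regulators, 5 were higher in ceh1 and 6 in ceh1/eds16 against eds16, with none lower. NAC016 rose 6.04-fold in ceh1 and 11.6-fold in ceh1/eds16 against eds16, NAC053 3.49-fold and 3.88-fold, and NAC091 1.81-fold and 2.26-fold. In the interaction, BIP3 was higher (log2 1.22 ± 0.22 SE, adjusted p = 0.00426, limma). SDF2, UNE5, OS9 and SAR1A were lower, from -0.54 (UNE5) to -1.51 (SAR1A), and this count of 4 ranged from 1 to 9 over the alternatives and was 9 without ceh1/eds16 replicate 3, the setting that raised the lower calls over all genes from 327 to 1328. SDF2 and UNE5 were named after their values were seen. In ceh1/eds16 against ceh1, limma called 12 of the 42 lower, beside 4.24% of all genes tested, edgeR 14 and DESeq2 16. None of the 42 was higher by limma, edgeR or DESeq2, while NAC062 of the regulators was called higher. The count of 12 ranged from 8 to 16 as single libraries were left out. In eds16 against Col-0, 3 were lower, BIP3 (fold 0.349), NAC016 (0.478) and CRT3 (0.673), of which CRT3 was named after its value was seen. That count was 6 without ceh1/eds16 replicate 3, with the rise in all calls given above, and 1 without Col-0 replicate 2.

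**Figure D5:**
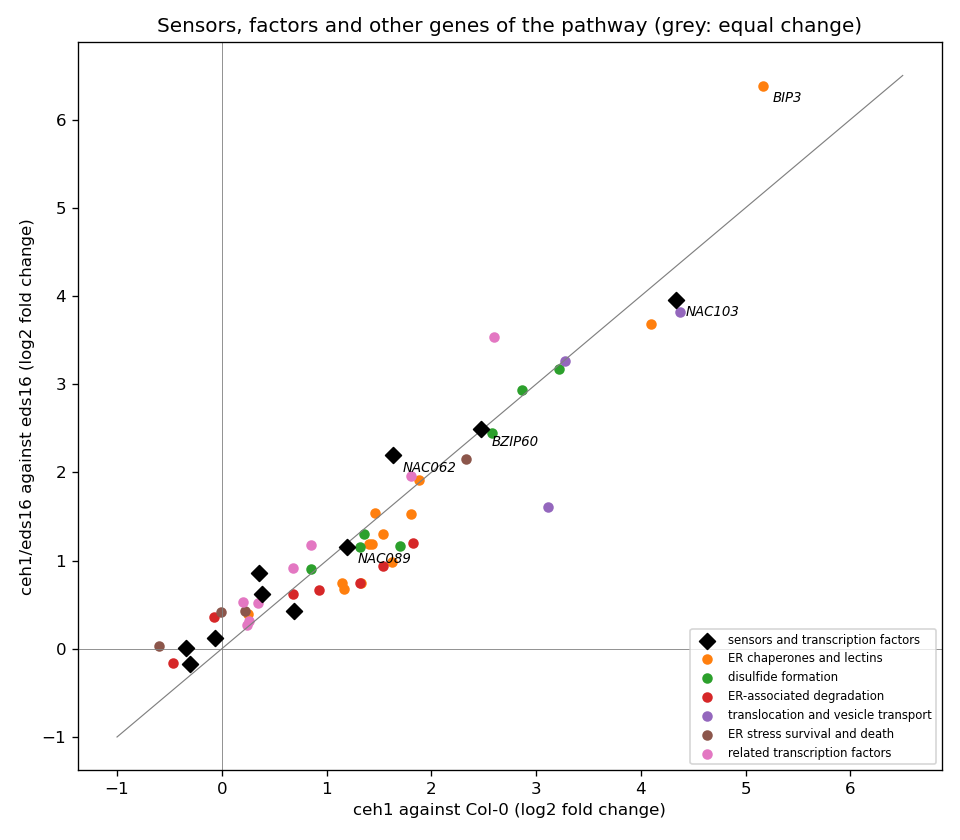
Log2 change of ceh1/eds16 against eds16 (vertical) plotted against that in ceh1 against Col-0 (horizontal), with a grey line of equal change. Black diamonds are the 10 regulators, and coloured points are 42 tested genes of 6 lists of pathway genes and related transcription factors. NAC103 (4.33, 3.96) and BIP3 (5.17, 6.38) lie at the upper right, NAC062 (1.63, 2.19) lies above the line, and SAR1A (3.12, 1.61) lies farthest below it.

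The genes whose levels were most like those of each regulator were taken by Pearson's r of log2(normalized count + 1) over the 12 libraries, which share the 4 genotypes, so a high r mostly follows the genotype means. For BZIP60 they were AT2G23680 (r = 0.997), GRP3S (0.995) and AT5G18310 (0.993), and 554 genes had r above 0.95. For NAC062 they were AT2G32140 (0.998), AT1G52100 (0.996) and WRKY40 (0.995), with 544 genes above 0.95. The 3 nearest to NAC103 were AT5G19440, AT4G21730 and AT1G54010 (0.99 each), with 430 genes above 0.95, and those nearest to NAC089 were RBL4 (0.984), DWF5 (0.982) and AT5G19930 (0.981), with 172.

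The sensors and the protein branch had fewer genes with r above 0.95, at 19 for IRE1A, 11 each for BZIP28 and BZIP17 and 3 for S2P. Their log2 changes with the ceh1 mutation were also smaller, and the part of this in the lower counts was not tested. IRE1A was nearest to ACA.l (r = 0.974), ATSYTF (0.971) and RGLG2 (0.969), BZIP28 to mtLPD2 (0.967), AT4G01870 (0.959) and SEC1B (0.958), and BZIP17 to TEJ (0.973), AT1G60890 (0.97) and RBL15 (0.967). S2P was nearest to CAND1 (0.959), RPN1A (0.955) and AT1G12470 (0.955). No gene reached r above 0.95 with IRE1B, whose nearest were ML3 (0.896), FAC1 (0.893) and AT4G28370 (0.888), or with S1P, whose nearest were ETR1 (0.917), AT3G10770 (0.897) and AT5G38730 (0.872).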

How the data were processed

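The deposited table holds, per locus and library, read counts divided by 1 size factor per library, a signal that the authors made with DESeq2. TopHat2, DESeq2 and TAIR10 stand in the submitters' processing notes, with versions not given in the sources used here. Within each library all values were whole multiples of 1 step (100% whole within 0.01), so reads were recovered. On these, edgeR 4.0.16 (quasi-likelihood) called 4567 genes higher and 4742 lower in ceh1 against Col-0, beside 4617 and 4566 in the main test; DESeq2 1.42.0 called 4502 and 4619.

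Genes were tested two-sided by limma (version 3.58.1, R version 4.3.3) after adding a pseudocount of 1 and taking log2, with a variance trend, all 12 libraries in 1 model of 4 group means (8 residual and 8.69 prior degrees of freedom), and Benjamini-Hochberg adjustment over the 18289 genes with a mean of at least 10; 15313 were filtered out. With library totals made equal, the split of all calls moved to 6882 higher and 2674 lower in ceh1 against Col-0, to 5033 and 2826 in ceh1/eds16 against eds16 (main test 4036 and 3700), to 328 and 586 in the interaction (564 and 327) and to 739 and 1184 in ceh1/eds16 against ceh1 (1084 and 776); quantile normalization moved the interaction to 467 and 429. In the other direction, equal upper quartiles gave 4105 higher and 5079 lower in ceh1 against Col-0 and 3419 and 4590 in ceh1/eds16 against eds16, and quantile normalization gave 4194 and 5048, and 3488 and 4385. The replicates are separate biological samples per the series' design text.

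The regulators, gene lists and tests were chosen with earlier results of these data known. The text names all 10 regulators, ICS1 and HDS, up to 3 genes per pathway list with the largest absolute log2 change in ceh1 against Col-0, and the 3 genes most correlated with each regulator. Coordinates, transcript lengths and sequences are from RefSeq's TAIR10.1 annotation, which holds 32835 of the 33602 loci; 4115 loci had no reads. Of 91 list entries 66 had the same symbol there, 21 had it as a synonym and 4 had another name, S2P among them. No regulator overlaps another annotated gene. Strand use in counting is not given in the sources used here.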

Additional observations from a re-analysis of the deposited data

How the results depend on the processing

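The calls of NAC103, BZIP60, NAC062 and NAC089 in both comparisons of a ceh1 genotype with its control held under all 25 alternatives, as did those of BZIP17 in ceh1 against Col-0 and of IRE1A and BZIP28 in ceh1/eds16 against eds16. Quantile normalization gave 1 regulator called lower in ceh1 against Col-0 (S2P). Of the other listed genes, 0 were lower in that comparison with library totals made equal, and 1 to 2 as single libraries were left out. As single libraries were left out, the regulators called higher in the interaction numbered 0 to 2, those lower in eds16 against Col-0 0 to 1 (and 1, IRE1A, with only the groups compared), those higher in ceh1/eds16 against ceh1 0 to 1 and those lower there 0 to 1. The count higher in ceh1/eds16 against ceh1 was also 0 with no filter, equal totals, quantile normalization, no variance trend, the replicate block or only the groups compared.

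Equal replicate numbers gave no sign of pairing: correlations of same-numbered deviations ran from -0.448 to 0.118, and a differently numbered pair reached 0.438. Whether same-numbered samples shared a harvest or batch was not tested. The replicate block ended 1 call among the regulators, that of NAC062 in ceh1/eds16 against ceh1 (log2 0.43, adjusted p = 0.0626), and gave 366 and 200 calls higher and lower over all genes in the interaction and 168 calls higher in eds16 against Col-0, beside 564, 327 and 299. 

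Values near 0 that were not called changed sign, and the cause was not tested. With equal library totals these were 0.16 for IRE1B in ceh1 against Col-0, -0.11 for BZIP60 in the interaction, 0.014 for NAC103 in eds16 against Col-0 and, in ceh1/eds16 against ceh1, -0.011 for IRE1A, -0.088 for IRE1B, -0.017 for BZIP28 and -0.060 for S1P; that scaling moved the median of all genes by 0.23, 0.11 and -0.12 in ceh1 against Col-0, ceh1/eds16 against eds16 and the interaction. With equal upper quartiles they were -0.087 for S1P in ceh1/eds16 against eds16, -0.021 for BZIP60 in the interaction, 0.015 for NAC103 in eds16 against Col-0 and -0.0021 for IRE1B in ceh1/eds16 against ceh1. Quantile normalization gave -0.093 for S1P in ceh1/eds16 against eds16 and -0.18 for BZIP60 in the interaction, and edgeR -0.0039 for S1P. As single libraries were left out, log2 values in ceh1/eds16 against eds16 ran from -0.094 to 0.15 for S1P and -0.0048 to 0.35 for IRE1B. In the interaction they ran from -0.20 to 0.18 for BZIP60 and -0.20 to 0.10 for NAC089. In eds16 against Col-0 they ran from -0.33 to 0.21 for NAC103 and -0.10 to 0.027 for BZIP17. In ceh1/eds16 against ceh1 they ran from -0.023 to 0.28 for IRE1A, -0.12 to 0.24 for IRE1B, -0.065 to 0.18 for S1P and -0.14 to 0.080 for S2P. The NAC103 levels in Col-0 and eds16 rest on few reads.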
